A study of Mus musculus with 18 samples.

Results

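Mast2i and Mast2ii were 2 mast cell clusters of the E16.5 bone marrow (BM), and their cells were taken as every hematopoietic progenitor (HP) of the E16.5 libraries that carried either cluster name in the deposited cell table. They held 1088 of the 5312 E16.5 HPs, 584 in Mast2i and 504 in Mast2ii, of 56201 cells in the whole series. The study counted transcripts and antibody tags (CITE-Seq) in single cells of fetal, newborn and adult mouse BM, with E16.5 as its earliest stage. Its E16.5 HPs were CD45+ Lineage- c-Kit+ cells of strain C57B6/J, sorted from embryos pooled over several litters, and the labels name no allele and no treatment. There were 2 E16.5 HP libraries, and the single-cell work was stated not to have been repeated, so that the spread between library 1 and library 2 may be technical. Another cluster of the same libraries, Mast1, was used where a comparison with the most similar cells was needed.

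Mast cells arise from hematopoietic progenitors, depend on the receptor Kit and fill their cytoplasm with granules that hold proteases, histamine and heparin. Surface IgE receptors (Fcer1a, Ms4a2 and Fcer1g) arm them to release these granules. Immature mast cells still divide, and a dividing cell copies its DNA and makes histones in S phase, then raises its mitotic proteins through G2 and M and clears them as it exits.

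In library 1, 85 of 560 HPs were Mast2i (15.2%, 95% exact binomial interval 12.3 to 18.4%) and 68 were Mast2ii (12.1%, 9.55 to 15.1%). Library 2 held 499 Mast2i cells (10.5%, 9.64 to 11.4%) and 436 Mast2ii cells (9.18%, 8.37 to 10.0%) of 4752. Mast2i was the larger of the pair in both libraries. Intervals here and below cover counting error only. Mast2i cells were the deeper ones, with a median of 33010 unique transcript counts (UMIs) in library 1 and 21837 in library 2, against 27577 and 17991.5 in Mast2ii and 22232.5 and 13591 in Mast1. The median numbers of genes detected were 5087 and 4306 in Mast2i and 4617.5 and 3905.5 in Mast2ii. Thinned to 5000 UMIs a cell, they came to 1775 and 1861.5 in Mast2i and to 1840 and 1863 in Mast2ii, so that the order of the clusters did not remain at equal depth. The thinning left out 1 and 3 shallower Mast2i cells and 0 and 4 Mast2ii cells. Mitochondrial UMIs had medians of 4.82% and 2.65% in Mast2i and of 4.11% and 2.79% in Mast2ii. The libraries shared 1 cell barcode, and no member carried it.

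The mast cell label was checked against a list of 15 identity genes, and all 15 were detected in both clusters of both libraries. Cpa3, the granule carboxypeptidase, stood at 12692 and 16766 CPM (counts scaled to a common total of UMIs) in Mast2i and at 12236 and 14730 CPM in Mast2ii, libraries 1 and 2 in that order here and below. Kit, by whose protein the cells had been sorted, stood at 483 and 434 CPM in Mast2i and at 472 and 377 CPM in Mast2ii. Transcripts that define most other cells were scarce. The 8 neutrophil genes summed to between 3.06 and 11.8 CPM over the 4 cluster and library pairs, the 8 erythroid genes to between 2.72 and 7.32 CPM, the 8 B cell genes to between 5.03 and 19.3 CPM, and the 10 stromal and endothelial genes to between 14.7 and 27.6 CPM. The 10 T cell genes summed to 10.2 and 12.1 CPM in library 1 but to 190 and 172 CPM in library 2, in Mast2i and Mast2ii respectively. Library 2 also held 2141 cells of T cell clusters where library 1 held 18, and the part of these cells in the T cell transcripts of the mast clusters was not tested. Gzma, a granzyme chosen after its values were seen, was at 0 in both clusters of library 1 and at 49.9 and 32.8 CPM in those of library 2. Macrophage genes were an exception and are described further on. Their 9 listed members summed to 643 and 118 CPM in Mast2i and to 49.3 and 58.1 CPM in Mast2ii. The 13 genes of eosinophil and basophil granules were not scarce as a sum. They summed to 1004 and 1411 CPM in Mast2i, 1312 and 1223 CPM in Mast2ii, and 1478 and 1685 CPM in Mast1. In Mast2i and Mast2ii most of that sum was Prss34, which is also on the list of granule proteases. Of the 13 genes, 6 and 5 had no UMI in Mast2i and 6 and 0 had none in Mast2ii.

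Of the 4 genes given as markers of the clusters, only Tpsg1 was found in most cells. Tpsg1, which encodes the membrane-anchored gamma tryptase, stood at 340 and 431 CPM in Mast2i and at 475 and 566 CPM in Mast2ii. It was therefore higher in Mast2ii in both libraries, 1.40-fold (95% interval of the ratio 1.28 to 1.53) and 1.31-fold (1.26 to 1.37), with Mast1 lowest at 287 and 328 CPM. At 5000 UMIs a cell, 64.3% and 74.2% of Mast2i cells and 79.4% and 87.5% of Mast2ii cells held a Tpsg1 UMI, against 1.83% of T cells and 2.55% of B cells of library 2 and 1 of 17 T cells and 0 of 28 B cells of library 1. Without thinning those shares were 94.1% and 93.4% in Mast2i and 95.6% and 97.0% in Mast2ii, at median depths of 21983 UMIs for the T cells and 10854 for the B cells.

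Mcpt2, a mucosal-type mast cell chymase, stood at 413 and 260 CPM in Mast2i and at 79.0 and 174 CPM in Mast2ii. Single cells carried much of that difference. In Mast2i 1 cell held 735 of the 1214 Mcpt2 UMIs of library 1 and another held 1270 of the 2987 of library 2, and without the highest cell of each cluster and library the levels were 163 and 150 CPM in Mast2i and 60.4 and 155 CPM in Mast2ii. The gap thus remained in library 1 and was gone in library 2. The share of cells with a Mcpt2 UMI at 5000 UMIs was 23.8% and 21.0% in Mast2i and 23.5% and 21.8% in Mast2ii, level with Mast1 at 22.9% and 20.1%, and 0.611% of T cells and 0.637% of B cells of library 2 held one. Without thinning the shares were 48.2% and 36.7% in Mast2i and 38.2% and 35.6% in Mast2ii. At equal depth Mcpt2 was thus found in a like minority of cells in each cluster.

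Prg2 and Tac1 marked neither cluster. Prg2, the eosinophil granule major basic protein, had no UMI in library 1, which allows up to 1.26 CPM in Mast2i and 1.86 CPM in Mast2ii. In library 2 it had 2 UMIs in Mast2i and 58 in Mast2ii, 57 of them in 1 cell. Tac1, the precursor of substance P, was found without thinning in 1 and 7 Mast2i cells and in 0 and 7 Mast2ii cells, and at 5000 UMIs a cell in 1 and 4 and in 0 and 4.

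The phase of each cell came from the authors, who scored every cell for S phase and for G2/M genes and called a phase from the 2 scores. They also stated that the scores were regressed out before the cells were clustered. The clusters nevertheless had unlike phases. In Mast2i 3 of 85 cells of library 1 (3.53%) and 2 of 499 cells of library 2 (0.401%) were called G1, while 71.8% (61.0 to 81.0%) and 64.5% (60.2 to 68.7%) were called S and 24.7% (16.0 to 35.3%) and 35.1% (30.9 to 39.4%) G2M. In Mast2ii 25% (15.3 to 37.0%) and 21.8% (18.0 to 26.0%) were called G1, 27.9% (17.7 to 40.1%) and 24.8% (20.8 to 29.1%) S, and 47.1% (34.8 to 59.6%) and 53.4% (48.6 to 58.2%) G2M. S was the leading call of Mast2i and G2M that of Mast2ii in both libraries, and the intervals of the S shares of the clusters did not overlap. Mast1 was 84.9% and 81.6% G1. The phase calls are made from genes that the clustering also used, so these shares describe the clusters and test nothing.

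**Figure D1:**
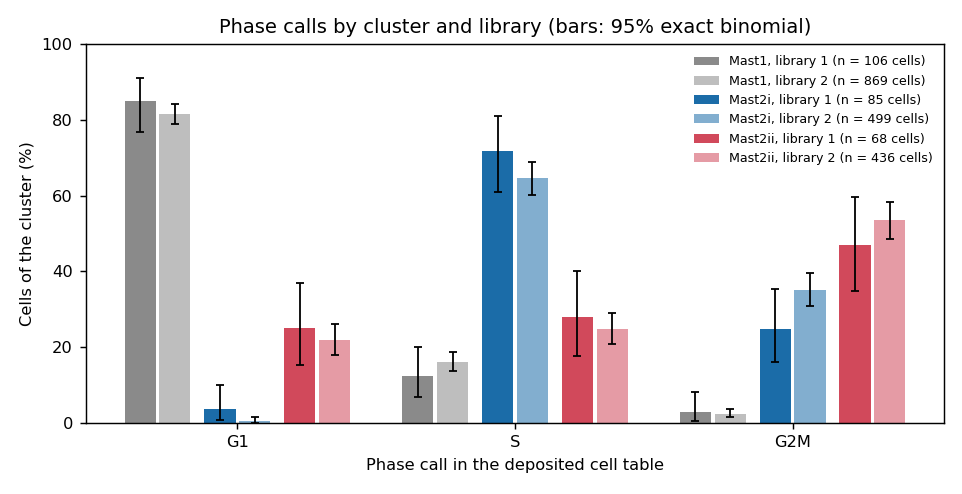
Share of the cells of Mast1 (grey), Mast2i (blue) and Mast2ii (red) in each called phase, in percent on the vertical axis, with the darker bar for library 1, the lighter for library 2 and 95% exact binomial intervals. The leading call was S in Mast2i (71.8% and 64.5%), G2M in Mast2ii (47.1% and 53.4%) and G1 in Mast1 (84.9% and 81.6%).

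The scores behind the calls parted the clusters further, since cells called G2M differed between them. Among G2M cells the median S score was 0.0306 and 0.0919 in Mast2i, and 12 of 21 and 134 of 175 such cells (57.1% and 76.6%) had an S score above 0. In G2M cells of Mast2ii the median S score was -0.112 and -0.101, and 1 of 32 and 28 of 233 (3.13% and 12.0%) lay above 0. Their median G2M score was also lower, 0.266 and 0.213 in Mast2ii against 0.503 and 0.544 in Mast2i. G2M cells of Mast2i thus had the higher S scores of the 2 clusters. Cells called S had a median S score of 0.287 and 0.341 in Mast2i and of 0.145 and 0.135 in Mast2ii.

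**Figure D2:**
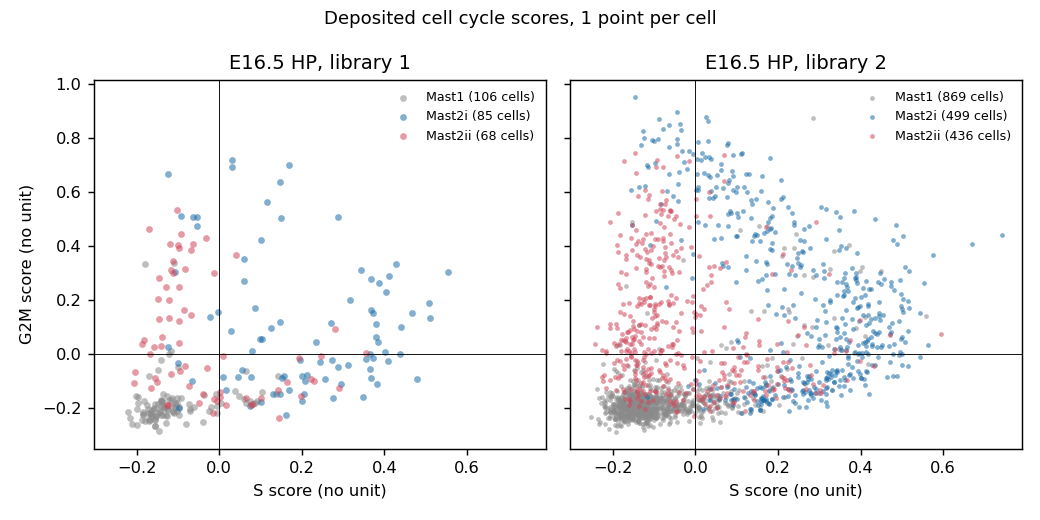
The deposited S score (horizontal axis, no unit) and G2M score (vertical axis, no unit) of each cell of Mast1 (grey), Mast2i (blue) and Mast2ii (red), with library 1 left and library 2 right. Mast2ii points with a high G2M score lay mostly left of an S score of 0, where 1 of 32 and 28 of 233 G2M cells were to its right, and Mast2i points formed an arc to its right.

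To compare gene levels, UMIs were summed over the cells of a cluster in each library. A gene was called where its CPM differed at least 2-fold in the same direction in both libraries, among 8973 genes with at least 20 UMIs over the 2 clusters in each library. This gave 185 genes higher in Mast2i, which is 2.06% of those tested, and 7 higher in Mast2ii, which is 0.0780%. No p-value was computed, because the clusters were formed from the same transcripts, and the median log2 ratio of Mast2ii to Mast2i over all genes tested was 0.09 in library 1 and 0.04 in library 2. For reference, in a single comparison, without the requirement of both libraries, library 2 differed from library 1 within a cluster by 2-fold or more for 129 genes upward and 224 downward in Mast2i (1.44% and 2.50%), and for 135 and 213 in Mast2ii. The counts of the same form between the clusters were 377 higher in Mast2i and 134 higher in Mast2ii in library 1 alone, and 476 and 113 in library 2 alone. At the 2-fold level the differences between the clusters were therefore mostly 1-sided, with Mast2i higher. Without a minimum fold they were not, since 1343 genes (15.0%) had both libraries of Mast2i above both of Mast2ii and 1821 (20.3%) the reverse. Of the 185 genes, 16 were on the S phase list, 11 on the G2 and M list, 22 were histone genes and 7 macrophage genes, and 123 were on no list.

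**Figure D3:**
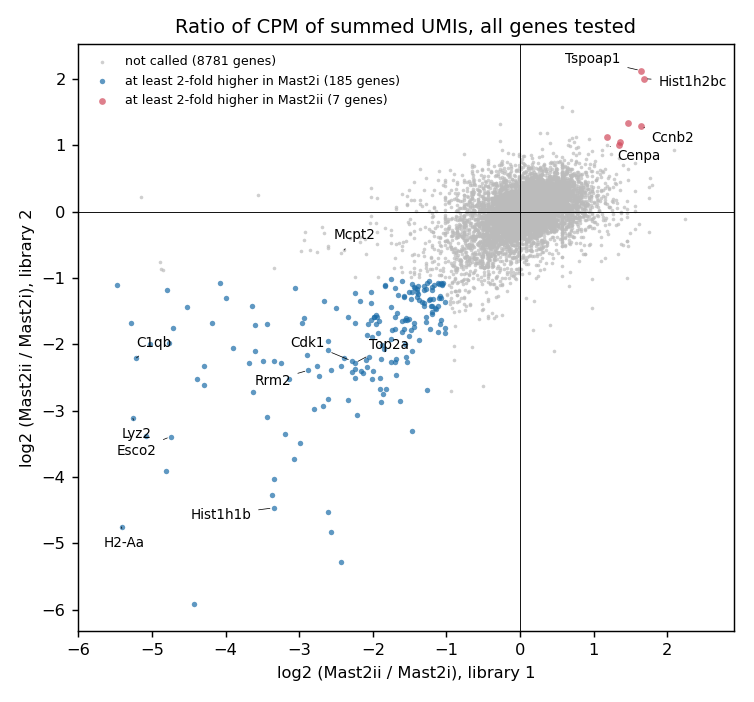
Log2 ratio of CPM, Mast2ii over Mast2i, in library 1 (horizontal axis) and library 2 (vertical axis) for each of the 8973 genes tested, with the 185 genes at least 2-fold higher in Mast2i in blue and the 7 at least 2-fold higher in Mast2ii in red. The blue genes spread over a wide range at the lower left, and the red genes form a small group at the upper right that holds Hist1h2bc, Tspoap1 and Ccnb2.

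Genes of DNA synthesis were higher in Mast2i almost throughout. All 42 genes of the S phase list were tested, and 16 were called higher in Mast2i and 0 in Mast2ii, against 2.06% and 0.0780% of all genes tested. The median log2 ratio was -0.92 and -1.10. The phase scores were made from genes of this kind, so the direction is tied to the phase calls and gives no separate support. For 41 of the 42 both libraries of Mast2i stood above both of Mast2ii, an order found for 15.0% of all genes tested. The list summed to 3527 and 4129 CPM in Mast2i, to 1919 and 1962 CPM in Mast2ii and to 1027 and 1518 CPM in Mast1. Mast2ii was thus intermediate, and 38 genes followed the order Mast2i, Mast2ii, Mast1 from high to low in both libraries, against 9.23% of all genes tested.

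Rrm2, a subunit of the enzyme that makes deoxynucleotides, stood at 155 and 184 CPM in Mast2i and at 21.1 and 35.1 CPM in Mast2ii, a difference of 7.34-fold (5.35 to 10.3) and 5.24-fold (4.63 to 5.95). Clspn, which links stalled forks to the replication checkpoint, was at 102 and 111 CPM against 24.2 and 22.0 CPM. Tyms, the thymidylate synthase, was at 130 and 268 CPM against 53.8 and 88.9 CPM. The gap was not the same for all replication genes. Pcna, the sliding clamp of the replication fork, chosen after its values were seen like Mcm5, was at 88.8 and 110 CPM in Mast2i and at 48.8 and 47.9 CPM in Mast2ii and missed the 2-fold level in library 1. Mcm5, of the replicative helicase, was at 102 and 132 CPM against 61.4 and 62.9 CPM. Esco2, which acetylates cohesin during replication, was at 40.5 and 47.0 CPM in Mast2i and at 1.51 and 4.49 CPM in Mast2ii.

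Histone genes, a group set apart after the values were seen, were far lower in Mast2ii for most members. Of 31 tested, 22 were called higher in Mast2i and 1 higher in Mast2ii, against 2.06% and 0.0780% of all genes tested. Some members passed the UMI minimum in library 1 mostly through Mast2i, such as Hist1h2af, with 20 UMIs in S cells of Mast2i and 0 in those of Mast2ii. The count therefore describes the clusters and tests nothing. The 22 summed to 1304 and 1496 CPM in Mast2i, to 207 and 129 CPM in Mast2ii and to 82.3 and 177 CPM in Mast1. Hist1h1b, a linker histone, was at 343 and 670 CPM in Mast2i and at 33.7 and 30.3 CPM in Mast2ii, and in library 1 a single Mast2ii cell held 82.1% of its UMIs there. Hist1h2ae, an H2A gene, was at 304 and 196 CPM against 33.2 and 19.3 CPM. Hist1h2bc went the other way, at 29.9 and 37.7 CPM in Mast2i and 96.1 and 151 CPM in Mast2ii, or 3.21-fold (2.48 to 4.18) and 4.01-fold (3.59 to 4.48) higher in Mast2ii. At 5000 UMIs a cell it was found in 14.3% and 13.3% of Mast2i cells and in 41.2% and 46.5% of Mast2ii cells, and without thinning in 44.7% and 34.3% against 77.9% and 74.3%. Histone genes have near-identical copies, so that the share of a single one of them is uncertain.

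Genes of G2 and M leaned toward Mast2i, less evenly than those of DNA synthesis. Of 49 tested, 11 were called higher in Mast2i and 1 in Mast2ii, against 2.06% and 0.0780% of all genes tested. Both libraries of Mast2i stood above both of Mast2ii for 26 of the 49, against 15.0% of all genes tested. The reverse held for 3, against 20.3%. These genes too are of the kind that the phase scores were made from. The median log2 ratio was -0.31 and -0.68, and the list summed to 5247 and 7708 CPM in Mast2i and to 5143 and 6152 CPM in Mast2ii. Cdk1, the kinase that drives mitotic entry, was at 101 and 184 CPM in Mast2i and at 20.6 and 38.6 CPM in Mast2ii. Top2a, which untangles chromosomes, was at 322 and 367 CPM against 67.9 and 75.5 CPM, 4.74-fold (3.96 to 5.72) and 4.86-fold (4.47 to 5.30) higher in Mast2i. Aurkb, the kinase of the chromosomal passenger complex, was at 54.8 and 99.2 CPM against 13.6 and 17.2 CPM. These genes were several-fold lower in Mast2ii in both libraries, as were Nusap1, a spindle protein, and Kif11, a spindle motor, both called.

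A few others of the same list were level or ran the opposite way. Hmgb2, a chromatin protein, was at 1231 and 1461 CPM in Mast2i and at 1416 and 1478 CPM in Mast2ii. Birc5, a partner of Aurkb in the passenger complex, chosen after its values were seen, was at 153 and 310 CPM against 182 and 312 CPM. Ccnb2, the mitotic cyclin B2, was at 55.8 and 102 CPM in Mast2i and at 174 and 248 CPM in Mast2ii, 3.11-fold (2.58 to 3.77) and 2.44-fold (2.27 to 2.62) higher. At 5000 UMIs a cell it was found in 23.8% and 29.6% of Mast2i cells and in 60.3% and 68.5% of Mast2ii cells, and without thinning in 56.5% and 53.9% against 91.2% and 91.5%. Cenpa, the histone variant of the centromere, chosen after its values were seen, was at 138 and 189 CPM against 312 and 378 CPM, and lay just under the 2-fold level in library 2. Cdc20, an activator of the anaphase-promoting complex also chosen after its values were seen, was at 33.4 and 86.1 CPM against 73.0 and 130.5 CPM, but among cells called S at 15.6 and 22.4 CPM against 10.3 and 22.1 CPM. Among these examples, then, Mast2ii held less Cdk1, Top2a and Aurkb than Mast2i, like amounts of Hmgb2 and Birc5, and more Ccnb2, Cenpa and Cdc20.

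The remaining genes called higher in Mast2ii were few and mostly low. Cdkn3, a phosphatase that acts on cyclin-dependent kinases, was at 30.6 and 54.4 CPM in Mast2i and at 77.5 and 109 CPM in Mast2ii, and with a ratio of 2.01 in library 2 it lay just above the 2-fold level. Cep89, a centriole protein, was at 7.49 and 8.28 CPM against 19.1 and 17.1 CPM. Tspoap1, a scaffold protein, was at 6.13 and 3.397 CPM against 19.1 and 14.8 CPM, or 3.12-fold (1.74 to 5.81) and 4.36-fold (3.02 to 6.42) higher in Mast2ii. Camkk1, a kinase that acts on calmodulin-dependent kinases, was at 4.42 and 4.27 CPM against 10.1 and 9.35 CPM. The open reading frame 2610318N02Rik, chosen after its values were seen, completed the 7, at 12.6 and 21.3 CPM against 34.7 and 53.7 CPM.

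Mitotic genes share promoter motifs, and the promoters of 4 of them are printed here because they split between the clusters, Ccnb2 and Cenpa toward Mast2ii and Cdk1 and Top2a toward Mast2i. Each runs 5′ to 3′ on the strand of the gene from 250 bases before to 50 bases after the annotated start, as RefSeq gives it on GRCm38.p6, the assembly that mm10 also names. They lie at chr9:70421505-70421804 (Ccnb2, minus strand), chr5:30666636-30666935 (Cenpa, plus strand), chr10:69352863-69353162 (Cdk1, minus strand) and chr11:99024140-99024439 (Top2a, minus strand). Capitals mark TTTGAA, the letters of the cell cycle homology region of G2 and M genes, and CCAAT, the letters bound by NF-Y, each also in its reverse complement (TTCAAA and ATTGG).
Ccnb2: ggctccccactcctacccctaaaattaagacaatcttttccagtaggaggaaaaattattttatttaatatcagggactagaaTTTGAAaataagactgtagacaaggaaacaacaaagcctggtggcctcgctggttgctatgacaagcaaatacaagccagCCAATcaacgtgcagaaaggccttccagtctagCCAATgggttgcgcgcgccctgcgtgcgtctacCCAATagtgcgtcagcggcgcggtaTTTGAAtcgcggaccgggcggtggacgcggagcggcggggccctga
Cenpa: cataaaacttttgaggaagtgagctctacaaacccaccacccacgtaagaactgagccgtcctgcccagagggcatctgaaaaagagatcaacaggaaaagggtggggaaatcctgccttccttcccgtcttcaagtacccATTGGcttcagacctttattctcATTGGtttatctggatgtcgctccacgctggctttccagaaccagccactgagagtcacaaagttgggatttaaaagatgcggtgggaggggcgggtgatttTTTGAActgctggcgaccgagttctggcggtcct
Cdk1: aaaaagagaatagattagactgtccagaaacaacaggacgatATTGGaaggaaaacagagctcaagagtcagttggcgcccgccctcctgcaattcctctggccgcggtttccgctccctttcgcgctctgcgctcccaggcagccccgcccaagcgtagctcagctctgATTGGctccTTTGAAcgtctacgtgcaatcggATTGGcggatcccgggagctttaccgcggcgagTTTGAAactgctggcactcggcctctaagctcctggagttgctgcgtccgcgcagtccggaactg
Top2a: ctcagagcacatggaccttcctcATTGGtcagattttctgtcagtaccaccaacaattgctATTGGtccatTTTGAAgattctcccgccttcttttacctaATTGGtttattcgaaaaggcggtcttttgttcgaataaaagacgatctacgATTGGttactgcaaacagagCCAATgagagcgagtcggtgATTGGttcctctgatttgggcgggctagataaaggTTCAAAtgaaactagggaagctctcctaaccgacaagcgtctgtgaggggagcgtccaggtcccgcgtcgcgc
The windows of Ccnb2, Cdk1 and Top2a held TTTGAA 2 times each and that of Cenpa 1 time, and CCAAT was found 3, 3, 6 and 2 times in the same order. Both motifs were thus present in all 4 windows, which were chosen for their direction and are too few to compare the sides. TTTGAA was found in 70.5% and CCAAT in 77.3% of the windows of the 44 G2 and M genes that had one, in 34.0% and 56.7% of those of 150 genes higher in Mast2i, in 12.1% and 39.5% of those of 7321 tested genes, and in 18.1% and 37.9% of all 27025 windows used. Letters of E2F sites (TTTGGCGC, TTTCCCGC, TTTCGCGC or TTTGCCGC on either strand, not marked above) were found 1 time in the window of Cdk1 and not in the other 3, in 4.55% of the windows of G2 and M genes, in 11.3% of those of genes higher in Mast2i, in 4.70% of those of tested genes and in 2.32% of all. A match of letters is a description of the window and shows no binding.

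Within cells of the same called phase the called genes of the G2 and M list were nearly all higher in Mast2i. Among S cells 18 of 45 tested genes of the list were called higher in Mast2i and 1, Ccnb2, in Mast2ii, and among G2M cells 14 of 48 were called higher in Mast2i and 0 in Mast2ii. The G2M score is made from genes of this kind. Its median was lower in Mast2ii within S cells and within G2M cells of both libraries, so these counts give no separate support. In cells called G2M, Top2a was at 578 and 599 CPM in Mast2i and at 115 and 113 CPM in Mast2ii, whereas Ccnb2 was at 140.4 and 213 CPM against 244 and 352 CPM. In cells called S, Top2a was at 252 and 213 CPM against 36.7 and 53.4 CPM and Ccnb2 at 24.8 and 27.8 CPM against 120.4 and 124 CPM. Top2a and Ccnb2 therefore kept opposite directions within each phase, with Ccnb2 below the 2-fold level among G2M cells. Among S cells 7803 genes were tested, with 154 called higher in Mast2i (1.97%) and 12 in Mast2ii (0.154%), and 92 of the 154 were among the 185. Among G2M cells 6507 were tested, with 87 called higher in Mast2i (1.34%) and 7 in Mast2ii (0.108%), and 63 of the 87 were among the 185. The S phase list summed to 4143 and 4921 CPM in S cells of Mast2i and to 3260 and 3382 CPM in those of Mast2ii, a smaller gap than over all cells. In G2M cells it summed to 2264 and 2958 CPM in Mast2i and to 1231 and 1487 CPM in Mast2ii. The G2M cells of Mast2ii also had the lower S scores, which were made from S phase genes. Mast2i had too few G1 cells, 3 and 2, for that phase to be compared.

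**Figure D4:**
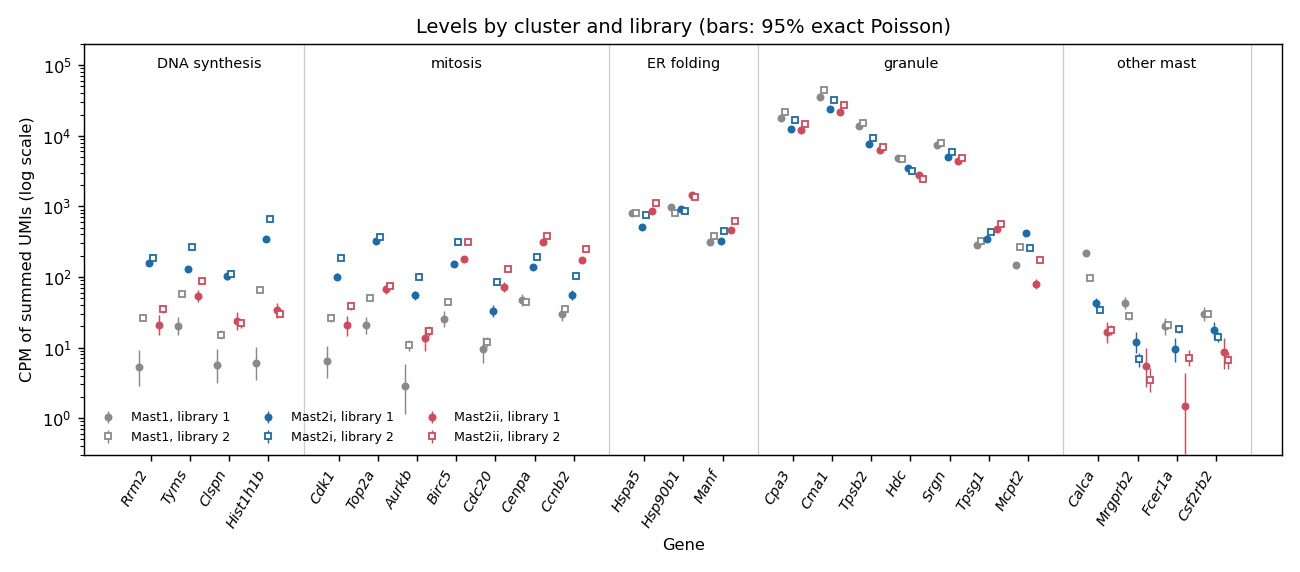
CPM of summed UMIs on a log scale (vertical axis) for genes of DNA synthesis, mitosis, endoplasmic reticulum folding, granules and other mast cell functions in Mast1 (grey), Mast2i (blue) and Mast2ii (red), with filled circles for library 1, open squares for library 2 and 95% exact Poisson bars. Rrm2, Cdk1 and Top2a lie lower in Mast2ii than in Mast2i, Ccnb2 and Cenpa lie higher, and the granule genes Cpa3, Cma1 and Tpsb2 lie close together and are highest in Mast1.

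Chaperones of the endoplasmic reticulum (ER) were somewhat higher in Mast2ii, below the 2-fold level. Of 25 genes tested on the ER folding list none was called, 14 stood higher in both libraries of Mast2ii than in both of Mast2i, against 20.3% of all genes tested, and 16 were highest in Mast2ii of the 3 clusters in both libraries, against 30.7%. Their median log2 ratio was 0.30 and 0.29. Hspa5, the ER chaperone BiP, was at 512 and 744 CPM in Mast2i, 849 and 1112 CPM in Mast2ii and 804 and 798 CPM in Mast1. Hsp90b1, the ER form of HSP90, was at 917 and 863 CPM in Mast2i and at 1441 and 1356 CPM in Mast2ii, 1.57-fold in each library (1.49 to 1.66 and 1.53 to 1.62). Manf, a secreted ER stress protein chosen after its values were seen, was at 328 and 445 CPM against 468 and 629 CPM. Hspa5 differed by phase, at 505 and 696 CPM against 571 and 715 CPM in S cells and at 508 and 818 CPM against 1170 and 1385 CPM in G2M cells. Glycolytic genes differed little, with 0 of 19 called at a median log2 ratio of 0.15 and 0.09, and Ldha, the lactate dehydrogenase, at 2187 and 2577 CPM in Mast2i and 2432 and 2738 CPM in Mast2ii.

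Granule proteases were nearly level between the clusters. None of 17 tested was called, at a median log2 ratio of -0.09 and -0.25, and the list took 5.00% and 6.57% of all UMIs in Mast2i, 4.57% and 5.56% in Mast2ii and 7.497% and 9.18% in Mast1. Cma1, the mast cell chymase, was at 23751 and 32213 CPM in Mast2i, at 21744 and 27083 CPM in Mast2ii and at 35583 and 44835 CPM in Mast1. Tpsb2, a tryptase, was at 7704 and 9393 CPM, 6343 and 7035 CPM, and 13549 and 15208 CPM in the same order. Both stood in the order Mast1, Mast2i, Mast2ii from high to low in each library, an order that 6 of the 17 followed, against 6.66% of all genes tested. Mcpt8, a basophil-type protease, was at 74.2 and 43.6 CPM in Mast2i and at 152 and 60.7 CPM in Mast2ii, but 1 Mast2ii cell of library 1 held 54.6% of the UMIs, and the levels without the highest cell were 54.1 and 41.6 CPM against 68.9 and 50.6 CPM.

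Among cells called S, 2 of 17 tested proteases were called higher in Mast2i, against 1.97% of all genes tested there, and 0 in Mast2ii. The list summed to 51652 and 67487 CPM in Mast2i and to 33287 and 39712 CPM in Mast2ii. There Tpsb2 stood at 7987 and 9747 CPM in Mast2i and at 3421 and 4247 CPM in Mast2ii and was called. Mcpt4, a connective tissue-type chymase chosen after its values were seen, was at 1344 and 1185 CPM against 598 and 351 CPM and was also called. Cma1 was at 24395 and 33225 CPM against 14330 and 19070 CPM in these cells. Among cells called G2M 0 of 16 were called, and the list summed to 44033 and 62983 CPM against 50851 and 60570 CPM. Tpsb2 was there at 6609 and 8847 CPM against 7685 and 7908 CPM, with the libraries in opposite directions, and Mcpt4 at 410 and 1237 CPM against 1209 and 1369 CPM. Over S cells, then, Mast2ii held less of these 3 transcripts than Mast2i in both libraries, and over G2M cells none of the 3 was called.

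Other mast cell programs held few called genes. Of the 15 identity genes 1 was called, Fcer1a, against 2.06% of all genes tested. In library 1 Fcer1a had 28 UMIs in Mast2i and 3 in Mast2ii, so it passed the UMI minimum there through Mast2i alone. The order Mast1, Mast2i, Mast2ii was followed by 10 of them, against 6.66% of all genes tested. Their median log2 ratio was -0.08 and -0.19. Fcer1a, the IgE-binding chain, was at 9.53 and 18.2 CPM in Mast2i, 1.51 and 7.16 CPM in Mast2ii and 20.1 and 20.7 CPM in Mast1. Without thinning it was found in 12.9% and 11.2% of Mast2i cells and in 2.94% and 7.80% of Mast2ii cells. At 5000 UMIs a cell the shares were 3.57% and 4.64% against 2.94% and 2.78%, nearly level in library 1, and neither of its partners was called. Ms4a2, the beta chain, chosen after its values were seen, was at 118 and 109 CPM in Mast2i and at 131 and 111 CPM in Mast2ii. Fcer1g, the gamma chain, was at 2462 and 2113 CPM against 2001 and 1796 CPM. Over the whole IgE receptor signalling list 1 of 20 genes was called, again Fcer1a, against 2.06% of all genes tested. The median log2 ratio of that list was -0.07 and -0.11.

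Histidine decarboxylase Hdc, which makes histamine, was at 3488 and 3223 CPM in Mast2i, 2783 and 2459 CPM in Mast2ii and 4875 and 4730 CPM in Mast1, and 0 of 10 genes of amine handling were called (median log2 ratio -0.15 and -0.17). Srgn, the core protein that carries heparin, was at 5036 and 5844 CPM, 4468 and 4792 CPM, and 7357 and 7918 CPM, with 0 of 20 genes of heparin and proteoglycan synthesis called (0.07 and -0.03). Both again stood highest in Mast1 and lowest in Mast2ii. Ltc4s, the leukotriene C4 synthase, was the only called gene of 7 for lipid mediators (median -0.32 and -0.42), against 2.06% of all genes tested. It was at 11.9 and 5.92 CPM in Mast2i and 4.53 and 2.55 CPM in Mast2ii, and in library 1 it passed the UMI minimum through Mast2i alone. Hpgds, of the same list, was called higher in Mast2i among S cells, at 126 and 93.0 CPM against 26.4 and 37.9 CPM. It was not called among G2M cells. Lists for exocytosis (16 tested, 0.11 and 0.06), transcription factors (25 tested, 0.19 and 0.03), homing and adhesion (11 tested, -0.02 and -0.23), cytokines and chemokines (8 tested, 0.18 and 0.17), immediate early genes (10 tested, 0.09 and 0.08), early progenitor genes (7 tested, 0.15 and -0.16) and eosinophil and basophil granules (5 tested, 0.41 and -0.19) had 0 genes called in either direction. Gata2, a transcription factor of mast cell progenitors, was at 496 and 496 CPM in Mast2i and at 599.9 and 534 CPM in Mast2ii. Among cells called S, Prss34, a protease on the eosinophil and basophil list, was at 740 and 1165 CPM in Mast2i. It was at 1186 and 706 CPM in Mast2ii there.

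Of 15 receptors of growth factors and cytokines tested, 2 were called higher in Mast2i, against 2.06% of all genes tested, at a median log2 ratio of -0.28 and -0.18. Csf2rb2, the IL-3 receptor beta chain, was at 17.7 and 14.1 CPM in Mast2i, 8.55 and 6.68 CPM in Mast2ii and 29.9 and 30.2 CPM in Mast1. Its relative Csf2rb, the shared beta chain for IL-3, IL-5 and GM-CSF, was at 171 and 145 CPM against 112 and 87.5 CPM and was not called, and reads of these near-identical genes may be hard to assign. The other called receptor was Csf1r, which belongs with the macrophage genes below and had 5 and 4 UMIs left in Mast2i without the macrophage-positive cells described there. Il1rl1, the receptor of IL-33, was at 633 and 394 CPM against 565 and 363 CPM.

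The genes of cell cycle brakes and cyclins and of cell death completed the called members of the lists. Cdkn2c, an inhibitor of Cdk4 and Cdk6, was at 14.6 and 23.6 CPM in Mast2i and at 4.03 and 3.52 CPM in Mast2ii, and E2f1, a transcription factor of S phase entry, was at 28.6 and 36.2 CPM against 9.56 and 14.9 CPM. These 2 were called of 15 tested (median log2 ratio -0.06 and -0.42), against 2.06% of all genes tested. In library 1 Cdkn2c passed the UMI minimum through Mast2i alone. Bcl2a1b, a survival gene of the Bcl2 family with near-identical copies, had 24 and 21 UMIs in Mast2i, 17 of the latter in 1 cell, and none in Mast2ii, where the upper limits were 1.86 and 0.448 CPM. It passed the UMI minimum through Mast2i alone and so had to differ. No other of the 11 genes tested for cell death was called (0.03 and -0.03). The cyclin Ccna2 was close to level, at 56.8 and 105 CPM against 66.9 and 92.3 CPM.

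Macrophage genes were carried by a few Mast2i cells. Of 8 macrophage genes tested 7 were called higher in Mast2i, against 2.06% of all genes tested, at a median log2 ratio of -5.00 and -1.43. In library 1, Mast2i held 1019 UMIs over 8 macrophage genes without Apoe and Mast2ii held 23. Such genes passed the UMI minimum in library 1 mostly through Mast2i, so the count describes these cells and tests nothing. C1qb, a chain of the complement component C1q, stood at 74.5 and 10.6 CPM in Mast2i and at 2.01 and 2.31 CPM in Mast2ii, and Lyz2, a lysozyme, at 96.3 and 14.7 CPM against 2.52 and 1.70 CPM. Cells with at least 5 UMIs over 8 such genes, Apoe left out, numbered 14 of 85 and 10 of 499 in Mast2i (16.5% and 2.00%), 1 of 68 and 2 of 436 in Mast2ii, and 4 of 106 and 5 of 869 in Mast1. They held 993 of 1019 and 510 of 571 macrophage UMIs of Mast2i, and their median depth was 50157.5 and 36179.5 UMIs where other Mast2i cells had 31556 and 21810. Cpa3 stood at 9438 and 11363 CPM in them and at 13640 and 16927 CPM in the rest of Mast2i. Without these cells C1qb was at 1.32 and 0.269 CPM in Mast2i and at 1.52 and 1.10 CPM in Mast2ii, and Lyz2 at 0.879 and 0.897 CPM against 2.03 and 1.47 CPM, a fall that the choice of the cells by these genes fixes. In all, 174 genes were then called higher in Mast2i, 150 of them among the 185, and 6 higher in Mast2ii. The authors had removed the deepest cells as putative doublets, no doublet caller was run here, and the part of doublets in these cells was not tested.

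Genes of MHC class II were found outside those cells too. H2-Aa was at 21.4 and 6.53 CPM in Mast2i and at 0.503 and 0.243 CPM in Mast2ii, and without the macrophage-positive cells at 26.8 and 4.93 CPM against 0.508 and 0.244 CPM. Cd74, the invariant chain, was at 34.0 and 16.4 CPM against 1.01 and 1.58 CPM over all cells. In library 1, 1 cell held 172 of the 262 class II UMIs of Mast2i, and in library 2 another held 193 of the 583. Both of these cells lay outside the macrophage-positive ones, so much of the level outside those rests on single cells. H2-Aa had 61 and 55 UMIs in Mast2i without the macrophage-positive cells and 1 and 2 in Mast2ii, so it passed the UMI minimum through Mast2i alone.

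Both clusters were then set against Mast1, with the cells of Mast2i and Mast2ii summed. Of 9603 genes tested, 369 were at least 2-fold higher in the Mast2 clusters in both libraries (3.84%) and 87 at least 2-fold higher in Mast1 (0.906%). Genes of cell division were on the side of the Mast2 clusters, with 43 of 49 tested G2 and M genes and 27 of 42 S phase genes called there and none called in Mast1. Of the 185 genes higher in Mast2i than in Mast2ii, 136 (73.5%) were also higher in the Mast2 clusters than in Mast1, which is 36.9% of the 369. Since these comparisons share the Mast2i cells, the overlap is given as a count only.

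Hmmr, a spindle protein, had a ratio of Mast2 to Mast1 of 9.48 and 14.8, with 53.4 and 102 CPM in Mast2i, 84.5 and 93.6 CPM in Mast2ii and 6.96 and 6.63 CPM in Mast1. Aspm, a spindle pole protein, was at 20.1 and 26.4 CPM, 15.1 and 20.4 CPM, and 2.05 and 2.70 CPM in the same order. Such genes were shared by both Mast2 clusters and scarce in Mast1. Ccnb2 belonged to them also, at 30.3 and 35.1 CPM in Mast1, whereas Hist1h2bc did not, at 51.6 and 66.4 CPM in Mast1 between the levels of Mast2i and Mast2ii.

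Genes higher in Mast1 included 2 of the list of neuropeptides and their receptors, Calca and Mrgprb2, which were lowest in Mast2ii. Calca, which encodes the calcitonin gene-related peptide, was at 42.9 and 34.1 CPM in Mast2i, 16.6 and 17.8 CPM in Mast2ii and 216 and 97.8 CPM in Mast1. Mrgprb2, the receptor through which mast cells answer basic peptides such as substance P, was at 11.9 and 6.79 CPM, 5.54 and 3.52 CPM, and 42.6 and 27.6 CPM. These were 2 of only 3 tested genes of 17 on the neuropeptide list, and none of the 3 was called between Mast2i and Mast2ii (median log2 ratio -1.11 and -0.94). The third, Calcrl, went the other way and was highest in Mast2ii of the 3 clusters in both libraries. Ifitm1, an interferon-induced membrane protein, was at 187 and 129 CPM, 49.3 and 65.2 CPM, and 862 and 406 CPM. Fgfr1, a fibroblast growth factor receptor, was at 11.2 and 6.53 CPM, 4.53 and 2.43 CPM, and 35.6 and 22.0 CPM, and was called in both comparisons. Calca, Mrgprb2, Ifitm1 and Fgfr1 all stood highest in Mast1 and lowest in Mast2ii in both libraries.

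Antibody tags were counted apart from the transcripts and did not enter the clustering. With 2 libraries an exact permutation test could not fall below 0.05, so no test was made. In library 1, 4 antibodies had at least 1000 counts and in library 2, 16 had. The antibody to CD16/32, the low-affinity IgG receptors, was counted in library 2 with a median of 32 per Mast2i cell (quartiles 22 and 42) and 22 per Mast2ii cell (15 and 29), against 28 in Mast1, 20.5 in the cluster Mono/Mast, 12 in Eos/Bas1, 0 in B cells and 1 in T cells. By median count Mast2i was thus the highest and Mast2ii the lowest of the mast clusters. Mast2i also stood above Mast2ii at like depth, with medians of 29 against 21 in cells under 15000 UMIs, 33 against 22 from 15000 to 25000 and 30 against 24 above. The same held within S cells (29 against 19) and within G2M cells (35 against 22). As mean counts per 1000 antibody counts of the cell the gap between Mast2i and Mast2ii shrank to 485 against 444, and Mast1 was then the highest at 494. Mast2i cells had more antibody counts in all, a median of 62 against 48.5 in Mast2ii and 57 in Mast1. CD16/32 tags were themselves a large part of that total, so this scale narrows their own gap. Fcgr3, which encodes CD16 and was chosen after its values were seen, ran slightly the other way, at 312 and 372 CPM in Mast2i and 336 and 411 CPM in Mast2ii. Fcgr2b, which encodes CD32 and was chosen likewise, was low and split by library, at 10.9 and 3.57 CPM against 4.03 and 4.86 CPM. Among S cells it was called higher in Mast2i, at 10.2 and 3.64 CPM against 1.47 and 1.25 CPM. That call rests on 21 and 25 UMIs against 1 and 3, and Fcgr2b passed the UMI minimum through Mast2i alone. The macrophage-positive cells were not left out there, so the call gives no support to the antibody difference.

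CD43, a sialomucin of leukocytes, had a median of 16 (11 to 21) in Mast2i and 13 (9 to 17) in Mast2ii in library 2, but a mean per 1000 antibody counts of 252 against 266, in the other direction. IL33R, the protein of Il1rl1, had a median of 3 (2 to 5.5) and 2 (1 to 4), against 0 in B cells and 1 in T cells, and means per 1000 antibody counts of 56.9 and 55.3. CD48, a receptor ligand of hematopoietic cells, was counted in both libraries, with a median of 84 (45 to 178) against 46 (27.8 to 73.3) in library 1 and of 2 (1 to 5) against 2 (1 to 4) in library 2. Per 1000 antibody counts the CD48 means were 806 against 729 in library 1 and 47.7 against 48.7 in library 2. The gap in library 1 was smaller on this scale, where CD48 itself made up most of the counts, which narrows it. The CD48 counts of the libraries were on different scales.

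**Figure D5:**
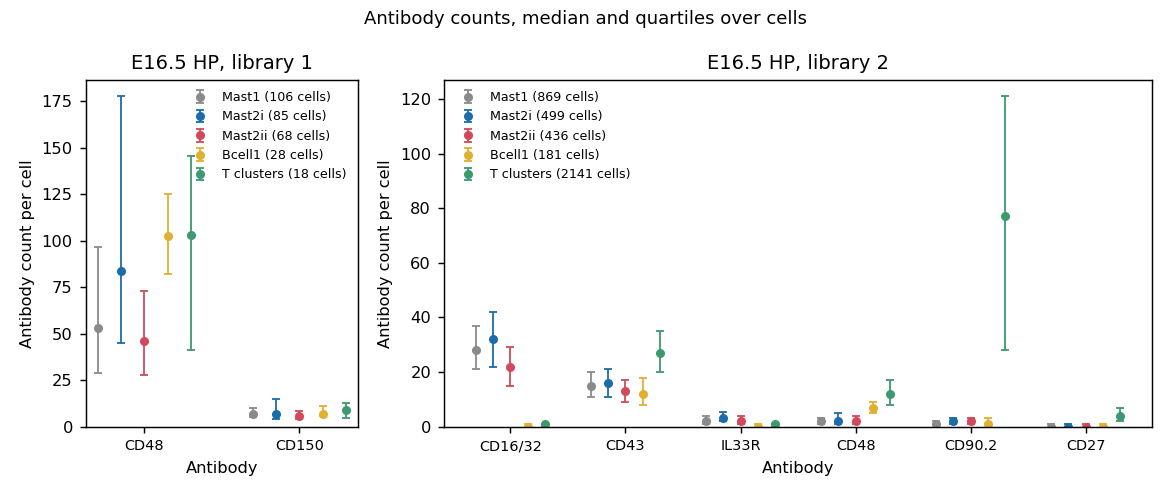
Antibody counts per cell (vertical axis) for selected antibodies in Mast1 (grey), Mast2i (blue), Mast2ii (red), B cells (yellow) and T cell clusters (green), with points for medians, bars for quartiles and library 1 left of library 2. CD16/32 was counted on mast cells, at a median of 32 in Mast2i, 28 in Mast1 and 22 in Mast2ii, and hardly on B and T cells (0 and 1).

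At later stages the mast clusters had other names and 1 library each, so values are only set side by side. In the E18.5 cluster Mast3 (162 cells, median 25714.5 UMIs) Tpsg1 was at 215 CPM (201 to 229), Top2a at 333 CPM and Ccnb2 at 104 CPM, and 36.4% of cells were called G1. In the P0 cluster Mast3 (260 cells, median 12625.5 UMIs) Tpsg1 was at 192 CPM (179 to 206), Top2a at 207 CPM and Ccnb2 at 88.3 CPM, with 55.4% of cells called G1. Prg2 stood at 4.52 and 8.93 CPM in them and Tac1 at 0 in both. The other mast clusters of E18.5, P0 and adult BM were shallow, with median depths of 534 to 798 UMIs. Among them Prg2 was at 100.1 CPM (60.3 to 156, 19 UMIs) in P0 Mast4, at 26.7 CPM (7.26 to 68.3, 4 UMIs) in adult Mast4i and at 17.7 CPM (2.14 to 63.9, 2 UMIs) in adult Mast4ii, and it had no UMI in E18.5 Mast/Bas.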

How the data were processed

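The authors isolated CD45+ Lineage- c-Kit+ HPs by sorting, prepared 3′ droplet libraries with antibody tags, and, per the submitters' processing notes, used Cell Ranger 3.1.0 on mm10, R 4.0 and Seurat 3.1.5. They deposited raw counts of UMIs per gene and cell (20275 genes, 56201 cells, 9 libraries) and raw counts of 29 antibodies, after filtering out shallow cells, cells with many mitochondrial UMIs and the deepest cells. The deposited cell table gave the library, cluster and phase of each cell, S and G2M scores made by the authors with Seurat, and a mitochondrial fraction from 0 to 1 whose name says percent. Of its columns, 7 were not used.

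Members were cells named Mast2i or Mast2ii in HP libraries 1 and 2 of E16.5. Clusters and phases were used as deposited. UMIs were summed per cluster and library and divided by all UMIs of the cluster to give CPM, with 95% exact Poisson intervals for levels, exact conditional binomial intervals for ratios and Clopper-Pearson intervals for shares of cells. Summed UMIs were 2938275 and 11480069 for Mast2i, 1987141 and 8237959 for Mast2ii and 2442909 and 12965855 for Mast1, so that library 2 gives the narrower intervals. A gene was called at a 2-fold difference of the same direction in both libraries, with at least 20 UMIs over the compared clusters in each, and a level of 0 entered the ratio as 3 counts. No test was run between clusters. The calling was tested on simulated data. Shares of cells with a UMI were taken with cells thinned to 5000 UMIs for the 4 markers, Fcer1a, Ccnb2 and Hist1h2bc, and without thinning where stated. Antibodies were summarised by medians and quartiles over cells, for antibodies with at least 1000 counts in a library.

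Named genes were the 4 markers, from each of 28 lists the called members (up to 6 by level) and up to 4 of the highest uncalled ones, and the 12 genes with the largest ratio each way between the clusters and against Mast1. Members, lists and rules were chosen with earlier results of these data known, and genes outside this rule are marked as chosen after their values were seen. Promoter windows came from RefSeq (GRCm38.p6), matched by symbol or synonym for 7321 of the 8973 tested genes, 150 of 185 higher in Mast2i and 44 of 49 G2 and M genes. The windows of a single chromosome were left out before any count, so genes there had none. Only 30 of 42 S phase genes and 5 of 7 genes higher in Mast2ii had a window (71.4% each), so that their motif shares are void and not given. Alternatives changed the fold, the UMI minimum, the scaling, the summary over cells, the cells used, the libraries, the thinning, the antibody scale and the denominator. Python 3.11.15, numpy 2.4.6, scipy 1.17.1, pandas 2.3.3 and matplotlib 3.10.9 were used.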

Additional observations from a re-analysis of the deposited data

How the results depend on the processing

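No paired analysis was possible because the results come from no test. The ratios themselves were taken within each library. Among the genes followed through every alternative, no called one changed direction where it kept enough UMIs to be tested. C1qb and Lyz2 fell below that minimum without the macrophage-positive cells and were then lower in Mast2i. Of the genes followed that were not called, Cdc20 changed direction among S cells (mean log2 ratio -0.31 in place of 0.86), and Cma1 and Tpsb2 did among G2M cells (0.10 and 0.03 in place of -0.19 and -0.35). Birc5, near level over all cells, was higher in Mast2i among S cells, at 90.4 and 132 CPM against 45.5 and 110 CPM. Ms4a2 was there at 119 and 116 CPM against 113 and 93.0 CPM, and Hmgb2 stayed near level. The counts of genes higher in Mast2i and in Mast2ii, 185 and 7, were 385 and 73 at a fold of 1.5 and 94 and 2 at a fold of 3. With at least 10 UMIs 21 genes were higher in Mast2ii, with at least 50 UMIs 104 were higher in Mast2i, and with cells thinned to 5000 UMIs 52 of 4294 tested genes were higher in Mast2i, 36 of them among the 185. Alternatives chosen after seeing the data gave 12 genes higher in Mast2ii among S cells and 87 higher in Mast2i among G2M cells. With 1 library left out, the counts ranged from 377 to 476 and from 113 to 134, since the requirement of both libraries was then dropped. The other scalings, the mean of cell CPM, and leaving out the deepest cells, the macrophage-positive cells or each gene's highest cell gave between 174 and 227 genes in Mast2i and between 6 and 9 in Mast2ii.

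Against Mast1 the counts of 369 and 87 were 195 and 19 at a fold of 3, and with 1 library left out 579 to 784 and 233 to 472. Counted among the cells of the 3 mast clusters in place of all HPs, the mean share over libraries was 30.2% for Mast2i and 25.2% for Mast2ii, in place of 12.8% and 10.7%. As means per 1000 antibody counts in place of median counts, a change of both scale and statistic, the ratio of Mast2ii to Mast2i was 0.916 in place of 0.688 for CD16/32 and 1.05 in place of 0.813 for CD43, which changed direction. CD16/32 was itself a large part of the total of this scale, which narrows its own ratio and weighs on that of CD43. A comparison in G1 cells alone gave no value, since Mast2i held 3 and 2 such cells and at least 10 were required. Depth limits genes under about 20 UMIs, and library 1, with 85 and 68 cells, limits each rare transcript.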
